A study of Mus musculus with 12 samples.

Results

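Most mouse genes give rise to several transcripts, and the question addressed here was whether nigral tissue of 2 mouse strains drew on different ones. All 12 libraries were compared at transcript level, 6 from SwissOF1 mice (OF1) against 6 from C57Bl/6j mice (C57). A gene entered if it was protein-coding, had 2 or more quantified transcripts and had a mean of 100 or more estimated reads per library, which 11441 of the 17223 protein-coding genes with 2 or more transcripts did. The series held 21542 protein-coding genes in all. For each transcript the share was its part of the summed TPM (a level per transcript length, scaled to the same total in each library) of its gene, in percent. The 11441 genes had 74692 transcripts, of which 27798 averaged 5% or more of their gene and were tested. The 4 groups were OF1-En1+/- mice (3 libraries), OF1-WT mice (3), C57-En1+/- mice (3) and C57-WT mice (3), all labelled male and 1 week of age, with substantia nigra tissue collected by laser microdissection and 1 library per animal. En1+/- mice carry 1 copy of *En1* disrupted by a LacZ knock-in, the gene of a transcription factor that midbrain dopaminergic neurons need for survival. OF1 is an outbred stock and C57Bl/6j an inbred one, so OF1 mice can differ from each other in sequence as well as from C57 mice.

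A gene can give rise to different transcripts by starting at another promoter, by joining or skipping exons in another order, by using another donor or acceptor splice site, by keeping an intron, or by ending at another polyadenylation site. Some of these choices change the protein, some change only the untranslated ends, and some yield RNA that is degraded by nonsense-mediated decay or stays noncoding. Neurons and glia are known for using alternative splicing widely. Sequence differences between mouse strains can create or remove splice sites. A further property of the mouse genome bears on any count of transcripts, which is that many abundant mRNAs have retrocopies, intronless copies inserted elsewhere, and short reads from a copy and from its parent gene can be near-identical.

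The libraries held 13538864 to 30927714 estimated reads in OF1 mice and 20030280 to 168741283 in C57 mice. The genes compared took 83.7% to 87.7% of these reads. Libraries SW22 (OF1-En1+/-) and C572S (C57-WT) stood apart. *Slc6a3*, the dopamine transporter, was at 2613 TPM in SW22 and 4554 TPM in C572S and at 36.8 TPM or less in the other 10, so the defining marker of dopaminergic neurons was close to 0 in most libraries. Library C572 (C57-En1+/-) held *Xist* at 2.35 TPM and no *Ddx3y* or *Eif2s3y* reads, against its male label. The summed TPM of 6 oligodendrocyte markers ranged from 376 to 2257 in OF1 mice and from 199 to 3209 in C57 mice, and that of 8 dopaminergic markers from 28.7 to 6817 in OF1 mice and from 28.8 to 10700 in C57 mice. Their part in the differences below was not tested beyond the counts given without SW22 and C572S. In such bulk samples fewer cells of a type and less RNA per cell cannot be told apart.

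Transcript shares differed between the strains for a small set of genes, and the differences in that set were large. The adjusted p-value of limma was under 0.05 for 228 of 27794 transcripts (0.82%), of which 114 had a higher and 114 a lower share in OF1 mice, and these belonged to 156 of 11439 genes (1.36%). An unadjusted p under 0.05 was found for 2114 transcripts, these included. The median absolute difference was 23.8 percentage points among the 228, beside 3.26 points over all tested transcripts, and 27 transcripts of 19 genes differed by 50 points or more. The shares of the 6 OF1 and the 6 C57 libraries did not overlap for 211 of the 228, where 1.33% of all tested transcripts did not overlap. The choice of the 228 by their p-value on these same shares favours both large differences and absence of overlap. In 63 genes one transcript rose and another fell, both past the threshold. The count was 126 transcripts in 90 genes without SW22 and C572S, and edgeR's test of differential transcript usage on the reads, which sets each transcript against the rest of its gene, called 79 of 24859 transcripts in 71 genes (0.318%), of which 51 transcripts were also called by limma.

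**Figure D1:**
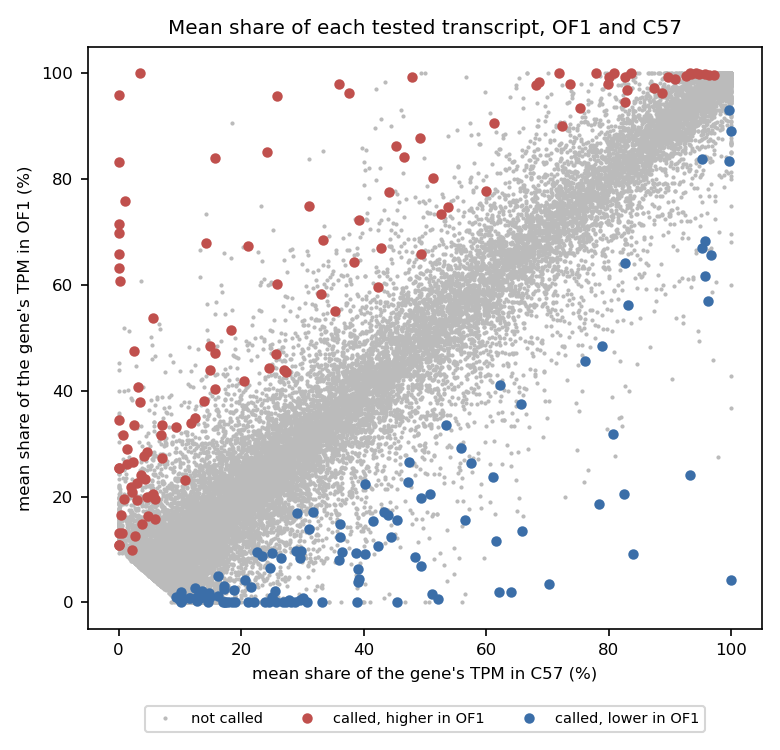
Mean share of the gene's TPM in the 6 OF1 libraries (vertical axis, %) against that in the 6 C57 libraries (horizontal axis, %) for each tested transcript, with the 114 called transcripts higher in OF1 in red, the 114 lower in OF1 in blue and the others in grey. Called transcripts lie far from the diagonal, and a column of red points at 0 in C57 and a row of blue points at 0 in OF1 mark transcripts assigned reads in 1 strain only.

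Several of the called transcripts were assigned reads in 1 strain and none in the other. Reads of both strains were assigned to the same transcripts of build GRCm39. The part of sequence differences between the strains in that assignment was not tested. Of the 228, 20 were at 0 in every OF1 library and 9 at 0 in every C57 library, and over all tested transcripts these counts were 179 and 165. A clear example was *Zc2hc1a*, the gene of a zinc finger protein, in which a transcript that skips a coding exon was assigned reads in C57 libraries and none in OF1 libraries. The exon covers chr3:7604136-7604243 of GRCm39, has 108 bases (36 codons, so that skipping it keeps the reading frame) and is shown in capitals with 10 intron bases on each side.
Zc2hc1a exon skipped in Zc2hc1a-203: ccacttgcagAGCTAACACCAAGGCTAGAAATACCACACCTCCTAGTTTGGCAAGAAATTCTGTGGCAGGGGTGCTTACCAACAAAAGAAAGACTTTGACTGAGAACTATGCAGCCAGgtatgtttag
The skipped form, Zc2hc1a-203, had 0% of the gene in every OF1 library, against 12.1% to 27.97% (median 18.3%) in C57 libraries. The groups did not overlap, and the share was 19.01 points lower in OF1 mice (SE 2.52, adjusted p = 0.000263 by limma). The exact permutation p was 0.005, the smallest that the 400 arrangements of strain within genotype allow. Any share without overlap has this value, so it adds nothing to the absence of overlap by which such genes were chosen. Zc2hc1a-201, which holds the exon, took 100% in every OF1 library and 72.0% to 87.9% in C57 libraries. A count of 0 over the OF1 reads of the gene allows a share of reads of up to 0.0148% for counting error only. In the annotation used for counting, Zc2hc1a-203 was a model of 1420 bases and Zc2hc1a-201 one of 3292 bases, so the 2 models differed in more than this exon.

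*Rint1*, whose product tethers vesicles between the Golgi and the endoplasmic reticulum, differed in its last exon. Rint1-204 ends early in an exon of its own of 343 bases at chr5:23998556-23998898 and codes for a short product, while Rint1-201 goes on to the full coding sequence of 2376 bases. The coding part of that short last exon is given in capitals, after 10 bases of the intron with the acceptor site.
Rint1-204 coding part of its last exon: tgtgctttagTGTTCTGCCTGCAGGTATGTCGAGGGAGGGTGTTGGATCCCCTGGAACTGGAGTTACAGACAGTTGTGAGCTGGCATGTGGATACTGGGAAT
Rint1-204 was at 0% in every OF1 library and at 35.6% to 57.7% (median 46.3%) in C57 libraries, a difference of -45.42 points (SE 3.07, adjusted p = 2.91e-06 by limma). Rint1-201 took 74.4% to 96.6% (median 86.0%) in OF1 libraries and 29.2% to 53.6% (median 46.6%) in C57 libraries, again without overlap (adjusted p = 0.00378). The leading transcript of the gene was thus Rint1-201 in OF1 mice, and in C57 mice the mean shares of Rint1-204 (45.4%) and Rint1-201 (45.3%) were within 1 SD of each other. The level of the gene as a whole was 15.2 TPM in OF1 mice and 19.2 TPM in C57 mice and did not pass the test (log2 difference -0.32, SE 0.17, adjusted p = 0.907).

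Further transcripts at 0 in every OF1 library came from *Heatr3*, *Ssbp4*, *Ccdc88c* and *Clec16a*. Heatr3-202, whose first exon ends at an earlier donor site and which has 1686 coding bases where Heatr3-201 has 2037, reached 14.0% to 34.8% (median 26.2%) in C57 libraries (difference -25.70 points, SE 3.58, adjusted p = 0.000224). *Heatr3* encodes a HEAT repeat protein known in yeast and human cells for bringing ribosomal proteins into the nucleus. Ssbp4-215, a short coding transcript of a single-stranded DNA binding protein gene, reached 20.9% to 29.0% (median 24.8%) in C57 libraries (difference -24.59 points, SE 1.28, adjusted p = 5.12e-06). Ccdc88c-204 is a short form of a gene of Wnt and G protein signalling, with 516 coding bases beside the 6027 of Ccdc88c-201. It reached 19.0% to 36.3% (median 27.6%) in C57 libraries (adjusted p = 1.62e-05 by limma and 0.0857 by edgeR). Clec16a-207, a noncoding transcript of a gene of endosomal traffic and mitophagy, reached 17.1% to 34.4% (median 21.6%) in C57 libraries (adjusted p = 6.86e-05), and 11.3% of its 31-base stretches occur in other genes. Further named transcripts at 0 in every OF1 library were Tcp11l1-207 (median 17.0% in C57 libraries, adjusted p = 0.000182) and Nudt6-210 (median 16.8%, adjusted p = 8.51e-05 by limma and 0.12 by edgeR). In none of the first 4 genes did OF1 and C57 libraries overlap, and the limit that a count of 0 allowed in OF1 mice was between 0.0579% (*Ssbp4*) and 0.329% (*Ccdc88c*) of the reads of the gene.

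In other genes the called pair had different first donor sites and the same annotated coding sequence. *Etfrf1* encodes a mitochondrial regulator of the electron transfer flavoprotein, and the first exons of its 2 main transcripts end 8 bases apart, at chr6:145156970 in Etfrf1-203 and chr6:145156978 in Etfrf1-207. The window below holds both donor sites, with the 8 bases that only Etfrf1-207 keeps in capitals.
Etfrf1 first exon end: ccagacctgctgGTGGTGAAgtatgcctta
Etfrf1-203 took 52.1% to 83.5% (median 65.6%) of the gene in OF1 libraries and 0% in every C57 library, and Etfrf1-207 took 1.12% to 34.9% (median 18.4%) in OF1 libraries and 65.6% to 87.6% (median 78.6%) in C57 libraries. Both changes were without overlap, with differences of 65.81 points (SE 5.15, adjusted p = 1.19e-05) and -59.81 points (SE 5.77, adjusted p = 0.00221). The level of *Etfrf1* was 29.1 TPM in OF1 mice and 30.99 TPM in C57 mice (adjusted p = 0.999). *Gng12* encodes a G protein gamma subunit. Gng12-206 had 18.7% to 42.9% (median 35.9%) in OF1 libraries and at most 0.614% in C57 libraries (adjusted p = 8.51e-05), while Gng12-201 had 4.40% to 23.97% (median 6.75%) in OF1 libraries and 53.2% to 73.4% (median 60.4%) in C57 libraries (adjusted p = 0.00142). Gng12-201 was not called by edgeR (adjusted p = 0.600). In the later release the 2 models end their first exon at different donor sites, but as counted Gng12-206 had 1125 bases and Gng12-201 had 4248, so they differed in more than the first exon.

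*St8sia1*, the synthase of ganglioside GD3, switched its leading transcript. St8sia1-203, annotated as a target of nonsense-mediated decay with 303 coding bases, took 45.8% to 92.4% (median 83.9%) in OF1 libraries and 0% to 5.50% (median 0%) in C57 libraries. St8sia1-201, with the coding sequence of 1065 bases and a quantified length of 8991 bases against 2159, took 7.61% to 54.2% (median 16.1%) in OF1 libraries and 78.5% to 100% (median 99.7%) in C57 libraries. The strains did not overlap in either, and the adjusted p-values were 0.000322 and 0.00524. *St8sia1* had few reads in OF1 mice, 56 to 254 per library against 425 to 3722 in C57 mice, and its level in TPM did not pass the test (2.55 TPM in OF1 mice and 3.17 TPM in C57 mice, adjusted p = 0.999).

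Of the called transcripts annotated as retained introns 9 of 24 had a higher share in OF1 mice, and of the called transcripts without a defined coding sequence 8 of 27. Fastkd1-204 and Hemk1-206, described next, were lower in OF1 mice, while the retained introns Uimc1-205 and Cacna1a-207, described further below, were higher. Fastkd1-204, annotated as a retained intron in a gene of the mitochondrial RNA-processing family, had 0% to 2.80% (median 0.425%) in OF1 libraries and 19.2% to 28.1% (median 26.0%) in C57 libraries (difference -23.97 points, SE 1.38, adjusted p = 0.000208). *Fastkd1* itself was lower in OF1 mice (4.64 TPM, against 11.8 TPM in C57 mice, adjusted p = 0.00487). *Hemk1* encodes a methyltransferase of translation release factors. Its transcript Hemk1-206, annotated as a retained intron, had 25.7% to 46.2% (median 38.4%) in OF1 libraries and 63.2% to 69.8% (median 64.3%) in C57 libraries. The coding form Hemk1-201 had 53.5% to 69.4% (median 57.9%) in OF1 libraries and 18.9% to 31.7% (median 26.4%) in C57 libraries, so the share of coding transcript was higher in OF1 mice (34.28 points, SE 2.36, adjusted p = 0.000234). When shares were taken among protein-coding transcripts alone, that call was lost (adjusted p = 0.928). *Bloc1s6*, a subunit of a complex that builds lysosome-related organelles, likewise gave more of its coding transcript. Bloc1s6-201 had 25.2% to 44.7% (median 33.9%) in OF1 libraries and 2.05% to 3.49% (median 2.37%) in C57 libraries (difference 31.03 points, SE 2.81, adjusted p = 9.87e-05), while the noncoding Bloc1s6-206 led in both strains, with means of 64.5% in OF1 mice and 72.6% in C57 mice that did not pass the test (adjusted p = 0.626).

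**Figure D2:**
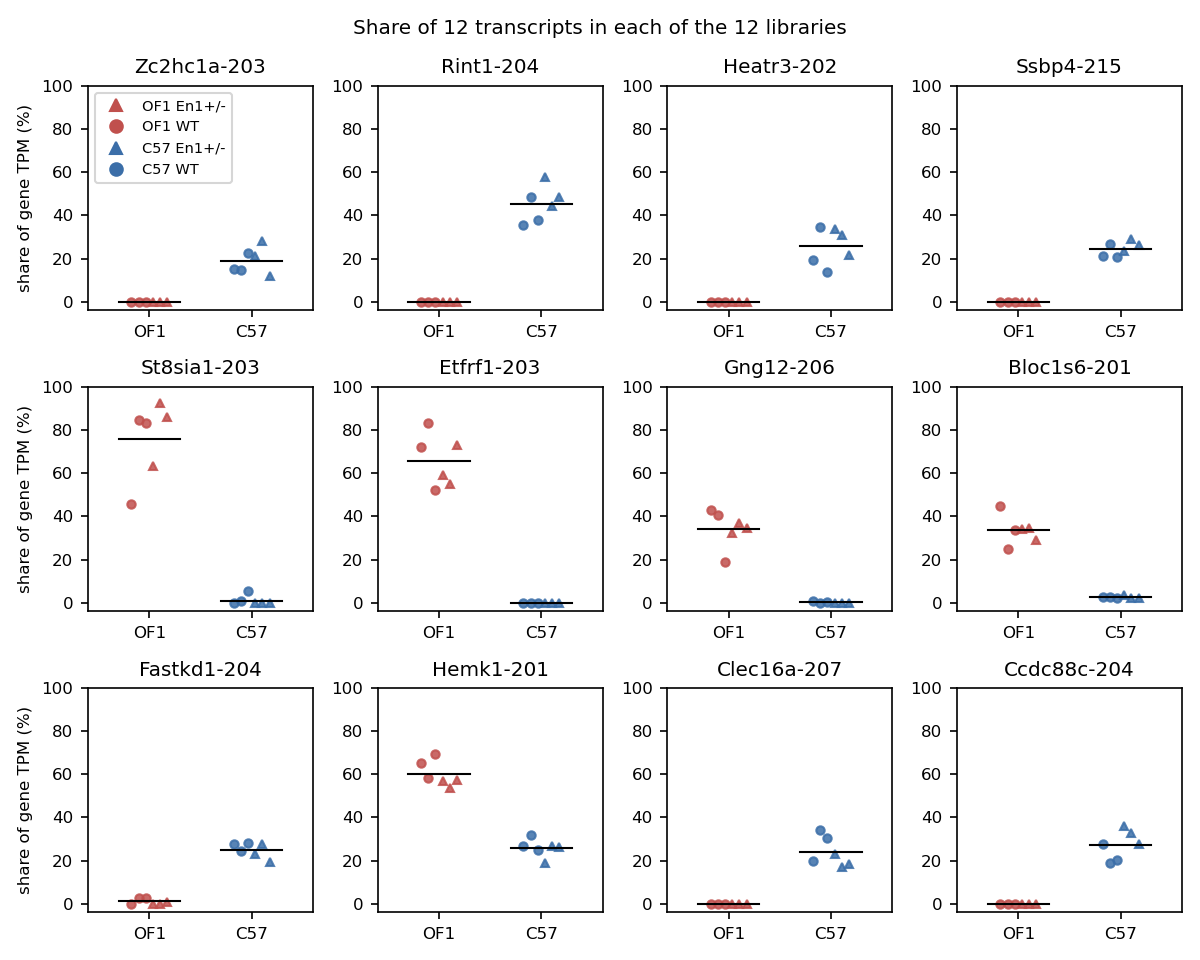
Share of the gene's TPM (vertical axis, %) of 12 named transcripts in each library, OF1 left and C57 right, with triangles for En1+/- mice, circles for WT mice and a bar at the mean of 6 libraries. In each of the 12 panels the OF1 and the C57 points are apart, and in 6 panels, such as those of Zc2hc1a-203 and Rint1-204, every OF1 point lies at 0.

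Gene totals were set beside the shares, and they differed in *Abhd14a* and *Pnpla3* and did not pass the test in *Gfer* and *Krbox5*. *Abhd14a*, a gene of the alpha/beta hydrolase family, had 8.94 TPM in OF1 mice and 66.8 TPM in C57 mice (log2 difference -2.85, SE 0.23, adjusted p = 4.29e-06), and Abhd14a-203 took 63.2% to 84.2% (median 69.9%) of it in OF1 libraries and 0% in every C57 library. Abhd14a-201, which took 47.9% to 55.3% in C57 libraries, was at 0% to 9.86% in OF1 libraries (adjusted p = 3.09e-07 for Abhd14a-203 and 6.66e-05 for Abhd14a-201). *Pnpla3*, a lipid hydrolase gene, had 20.6 TPM in OF1 mice and 5.16 TPM in C57 mice (log2 difference 1.98, SE 0.32, adjusted p = 0.00421), with the coding Pnpla3-201 at 93.3% to 100% (median 100%) in OF1 libraries and 23.2% to 60.8% (median 33.0%) in C57 libraries. The C57 libraries held as few as 21 reads of *Pnpla3*. *Gfer*, a sulfhydryl oxidase of mitochondrial protein import, had a total that did not pass the test (22.3 TPM in OF1 mice and 21.7 TPM in C57 mice, adjusted p = 0.999), and Gfer-204, annotated as a decay target, took 59.2% to 80.0% (median 69.0%) in OF1 libraries and 0% in every C57 library (adjusted p = 2.47e-06). *Krbox5*, a KRAB box gene with 22 to 45 reads per OF1 library, had Krbox5-204 at 73.2% to 89.7% (median 86.5%) in OF1 libraries and 0% to 31.04% (median 16.6%) in C57 libraries (adjusted p = 0.00495 by limma and 1 by edgeR). Its level was 7.90 TPM in OF1 mice and 17.2 TPM in C57 mice (adjusted p = 0.0674). Of the 156 genes with a called transcript, 26 (16.7%) were also called at gene level, 8 higher and 18 lower in OF1 mice, where 124 of 11441 genes were called at gene level in all (1.08%), 52 higher (0.455%) and 72 lower (0.629%) in OF1 mice.

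A second group of called transcripts shared sequence with another gene whose level differed between the strains. For 39.5% of the 228 called transcripts over 10% of the 31-base stretches also occur in transcripts of another gene, beside 23.7% of all tested transcripts. For 82 called transcripts a single other gene held over 10% of these stretches, and the TPM of that gene did not overlap between the strains for 23 of the 82 (28.05%), beside 242 of 6017 (4.02%) over all tested transcripts. That gene was higher in OF1 mice for 19 of the 23 and for 190 of the 242, so the direction was alike in both sets. With every transcript over 10% left out before the adjustment, 126 transcripts in 92 genes were called. The part of the shared sequence in the differences that follow was not tested.

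*Hspa8*, which encodes the constitutive heat shock chaperone Hsc70, is an abundant example. Hspa8-201 has the full coding sequence of 1938 bases, and Hspa8-202 uses a later acceptor site that leaves out 57 bases (19 codons), chr9:40714035-40714091 of GRCm39. The joined sequence around that site is shown for both transcripts and for *Gm15459*, an intronless processed pseudogene of *Hspa8* on chromosome 5, with the 57 bases or their counterpart in capitals and 20 bases on each side.
Hspa8-201: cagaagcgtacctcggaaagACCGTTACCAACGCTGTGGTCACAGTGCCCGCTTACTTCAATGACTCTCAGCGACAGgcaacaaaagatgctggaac
Hspa8-202: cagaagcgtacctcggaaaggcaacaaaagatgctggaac
Gm15459: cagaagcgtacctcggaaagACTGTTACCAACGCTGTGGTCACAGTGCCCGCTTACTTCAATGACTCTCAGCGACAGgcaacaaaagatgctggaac
The copy is identical to Hspa8-201 at 96 of the 97 bases, and the best placement of the 40 bases of Hspa8-202 in it matches 28. Hspa8-201 took 7.87% to 10.0% (median 8.27%) of the gene in OF1 libraries and 42.2% to 52.6% (median 48.9%) in C57 libraries (difference -39.83 points, SE 1.51, adjusted p = 5.12e-06). Hspa8-202 took 75.6% to 88.7% (median 79.5%) in OF1 libraries and 47.2% to 57.4% (median 50.8%) in C57 libraries (28.92 points, SE 2.57, adjusted p = 0.00152). *Gm15459* was at 1076 to 1802 TPM in OF1 libraries and at 0.440 to 1.76 TPM in C57 libraries. Of the 85 stretches of 31 bases that Hspa8-201 has and Hspa8-202 lacks, *Gm15459* holds 54, and of the 28 that only Hspa8-202 has it holds 0. These stretches come from a later release of the annotation, in which Hspa8-202 was revised. As counted, Hspa8-201 had 2394 bases and Hspa8-202 had 2019, so the 2 models differed in more than the 57 bases. The stretches that set them apart in the counting can therefore be others. Another called transcript, the noncoding Hspa8-209, shares more with *Gm15459* (86.2% of its stretches) and was higher in OF1 mice, at 2.03% to 15.3% (median 11.8%) in OF1 libraries and at most 0.0218% in C57 libraries (10.83 points, SE 1.96, adjusted p = 0.0094). Called transcripts that share sequence with the copy included forms that rose and a form that fell, and the part of the copy in these changes was not tested.

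*Psmb5*, the chymotrypsin-like subunit of the proteasome, had the same arrangement. Psmb5-202 leaves its middle exon at an inner donor site, 261 bases before the one Psmb5-201 uses, and both sites are shown with 20 exon bases in capitals and 10 intron bases, on the minus strand of GRCm39 at chr14:54853962-54853991 for Psmb5-201 and chr14:54854223-54854252 for Psmb5-202.
Psmb5-201 donor: CTGGGATAAGAGAGGCCCTGgtgagttgtg
Psmb5-202 donor: GGATTCCCGGGCCACAGCAGgtgcttatat
Psmb5-202 took 13.5% to 21.9% (median 16.2%) in OF1 libraries and 0% to 1.35% (median 0.167%) in C57 libraries (difference 16.12 points, SE 1.15, adjusted p = 0.000398). The processed pseudogene *Gm3375* was at 325 to 455 TPM in OF1 libraries and at 0 to 0.522 TPM in C57 libraries, and it holds 157 of the 289 stretches found only in Psmb5-201 and 0 of the 28 found only in Psmb5-202. These stretches too come from the later release, in which both models were revised. As counted, Psmb5-201 had 899 bases and Psmb5-202 had 622. *Psmb5* itself was lower in OF1 mice, at 405 TPM against 634 TPM in C57 mice (adjusted p = 0.00686).

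Ribosomal protein genes were, of the 9 gene lists examined, the one with the largest share of called genes, 4 of 77 (5.19%, beside 1.36% of all genes), with 8 called transcripts, 4 higher and 4 lower in OF1 mice, and a median absolute difference over the list of 1.62 points beside 3.26 points over all tested transcripts. A count of 4 genes is too small to rank this list against the rest. Ribosomal proteins are known for their many processed pseudogenes. Rpl21-202 took 17.8% to 29.2% (median 23.7%) of *Rpl21* in OF1 libraries and 49.5% to 73.0% (median 61.2%) in C57 libraries (adjusted p = 0.00043). The related *Gm13370*, which shares 43.4% of its stretches, was at 721 to 1092 TPM in OF1 libraries and at 0 to 3.95 TPM in C57 libraries. Rps7-203 took 4.39% to 15.5% (median 11.0%) of *Rps7* in OF1 libraries and 36.1% to 52.5% (median 42.0%) in C57 libraries (adjusted p = 0.000907), with *Gm61310* at 282 to 435 TPM in OF1 libraries and at 0 to 10.4 TPM in C57 libraries. Rps2-208 took 49.7% to 87.5% (median 63.7%) of *Rps2* in OF1 libraries and 94.5% to 96.0% (median 95.3%) in C57 libraries (adjusted p = 0.0295), with *Gm58349* at 227 to 803 TPM in OF1 libraries and at 5.398 to 9.90 TPM in C57 libraries. Neither Rps2-208 nor Rps2-201 was called by edgeR, and the limma call of Rps2-201 was lost on leaving out any of 6 of the 12 libraries. In all 3 genes the pairs did not overlap, the related gene was the higher one in OF1 mice, and the parent gene was lower there, with log2 differences of -0.80 (SE 0.15) for *Rpl21*, -1.58 (SE 0.16) for *Rps7* and -4.42 (SE 0.41) for *Rps2*. In these 3 genes the stretches that set the leading pair of transcripts apart were nearly all absent from the related gene, which held 0 of those of Rpl21-202 and Rpl21-203, 0 of those of Rps7-203, 8 of the 324 of Rps7-201, 0 of the 165 of Rps2-201 and 5 of the 179 of Rps2-208. They come from the later release, in which Rpl21-202, Rps2-201 and Rps2-208 were revised.

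**Figure D3:**
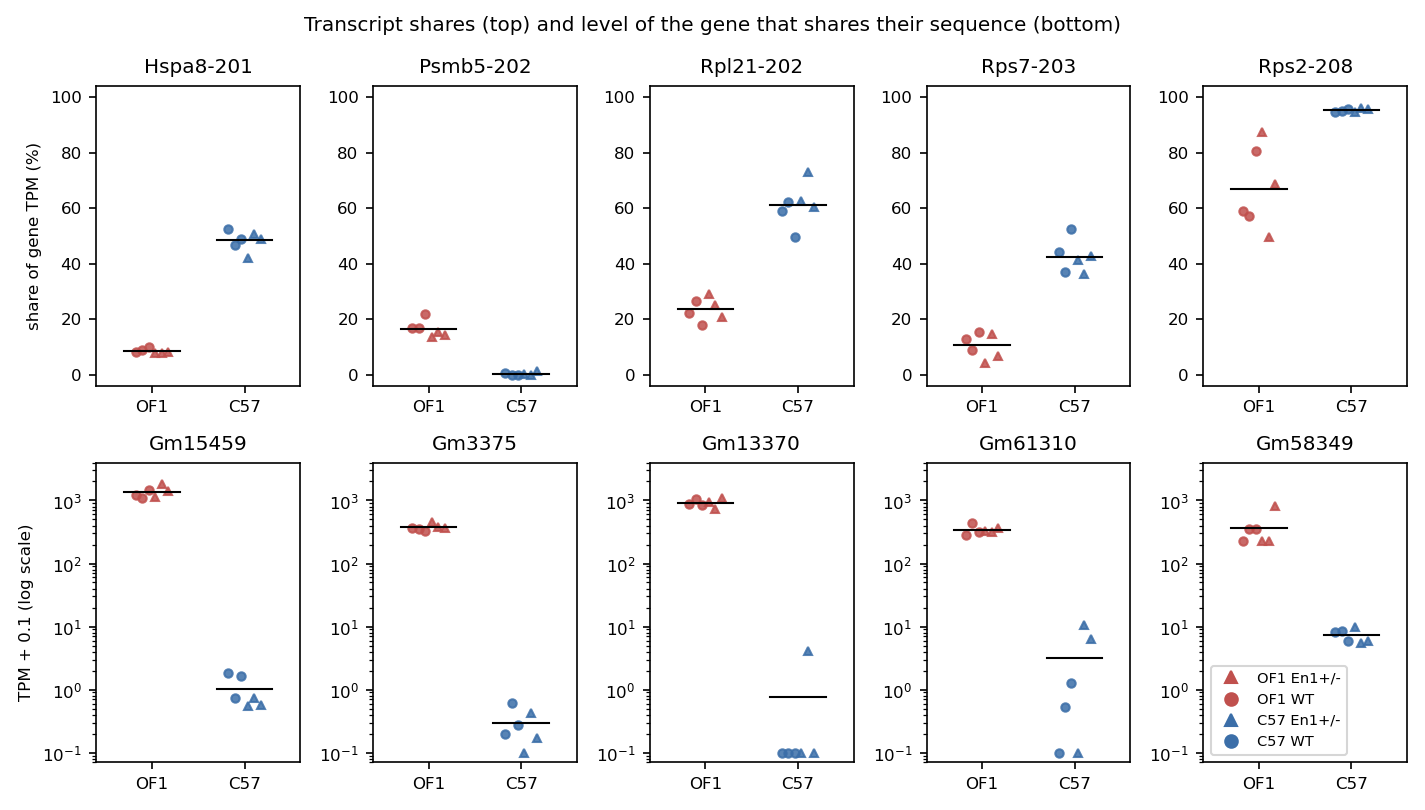
Share of the gene's TPM of 5 transcripts (top, %) and TPM + 0.1 on a log scale of the gene that shares most sequence with each (bottom), in each library, OF1 left and C57 right, with triangles for En1+/- mice, circles for WT mice and a bar at the mean. In each column the shares do not overlap between the strains, and the related gene lies at 227 TPM or more in every OF1 library and at 10.4 TPM or less in every C57 library.

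The ribosomal gene *Rpl29* and the gene *Uimc1*, which encodes a ubiquitin-binding factor of DNA repair, were called together and share sequence. Uimc1-205, a transcript on chromosome 13 annotated as a retained intron, took 58.1% to 67.5% (median 59.7%) of *Uimc1* in OF1 libraries and 0% to 1.73% (median 0%) in C57 libraries (60.54 points, SE 1.49, adjusted p = 3.29e-07). Of its 31-base stretches, 60.9% occur in *Rpl29* transcripts. Rpl29-201 took 0% to 1.02% (median 0.311%) of *Rpl29* in OF1 libraries and 24.01% to 33.2% (median 30.8%) in C57 libraries (adjusted p = 1.19e-05). Rpl29-205 took 25.3% to 43.6% (median 39.7%) in OF1 libraries and 7.34% to 21.8% (median 13.2%) in C57 libraries (adjusted p = 0.019). *Uimc1* was higher in OF1 mice (17.6 TPM, against 8.08 TPM in C57 mice, adjusted p = 0.0254) and *Rpl29* lower (381 TPM, against 615 TPM in C57 mice, adjusted p = 0.0144).

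The smallest adjusted p-value belonged to *Eno1b*, a gene on chromosome 18 closely related in sequence to the glycolytic enzyme gene *Eno1*. Eno1b-202, a model of a single exon, took 93.3% to 97.4% (median 95.8%) in OF1 libraries and 0% in every C57 library, a difference of 95.84 points (SE 0.541, adjusted p = 1.75e-10), and 95.5% of its 31-base stretches occur in other genes, 87.9% in *Eno1*. The gene stood at 503 TPM in OF1 mice and 4.47 TPM in C57 mice, while *Eno1* was at 424 to 682 TPM in OF1 libraries and 1085 to 1248 TPM in C57 libraries. *Hddc3*, a nucleotide hydrolase gene, overlaps *Unc45a* on chromosome 7, and because the libraries do not mark strand, reads of the 2 genes cannot be told apart where they overlap. Hddc3-201 took 70.4% to 79.1% (median 75.0%) in OF1 libraries and 25.6% to 44.0% (median 29.1%) in C57 libraries (adjusted p = 0.000106). The level of *Hddc3* was 120 TPM in OF1 mice and 21.5 TPM in C57 mice. *Unc45a* was at 29.9 to 53.5 TPM in OF1 libraries and 25.8 to 51.3 TPM in C57 libraries, which overlap.

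The share of genes with a called transcript was 1.54% among 65 splicing regulators (1 gene) and 3.45% among 58 neuronal genes known for alternative splicing (2 genes), beside 1.36% of all genes. Counts this small rank neither list against the rest. The splicing regulator was *Srsf1*, an SR protein that promotes exon inclusion. Srsf1-205 took 17.1% to 29.7% (median 21.1%) in OF1 libraries and 31.6% to 54.1% (median 39.5%) in C57 libraries (difference -17.83 points, SE 2.47, adjusted p = 0.0135 by limma and 1 by edgeR, so that the call was lost there). The neuronal genes were *Epb41l1*, a membrane skeleton gene, and *Cacna1a*, the pore subunit of P/Q-type calcium channels. Epb41l1-204 had 1.80% to 12.9% (median 5.86%) in OF1 libraries and 20.7% to 82.2% (median 50.3%) in C57 libraries (adjusted p = 0.036). Cacna1a-207, annotated as a retained intron, had 8.84% to 38.7% (median 27.7%) in OF1 libraries and 0% to 11.3% (median 0%) in C57 libraries (adjusted p = 0.036). Each of these 2 calls was lost on leaving out any of 10 of the 12 libraries, with adjusted p-values of up to 0.101 and 0.106, and neither was called by edgeR (adjusted p = 0.591 and 1). The median absolute difference was 2.32 points for the splicing regulators and 2.73 points for the neuronal genes, beside 3.26 points over all.

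Among 83 nuclear genes of the respiratory chain 2 were called (2.41%, beside 1.36% of all genes), both with a higher share in OF1 mice, and the list's median absolute difference was 0.890 points. Uqcr10-201, of a complex III subunit, had 99.6% to 99.98% of the gene in OF1 libraries and 95.7% to 97.0% in C57 libraries, a difference of 3.42 points (SE 0.255, adjusted p = 0.00194). Ndufaf7-203, of a complex I assembly factor, had 5.80% to 13.9% (median 9.44%) in OF1 libraries and 1.56% to 3.16% (median 2.22%) in C57 libraries (adjusted p = 0.0391), a call that was lost on leaving out any of 11 of the 12 libraries. No transcript was called in 6 myelin genes, 23 Parkinson disease genes, 11 dopaminergic genes or 14 MHC genes, lists too small for a count of 0 to set them apart from the 1.36% of all genes. The median absolute difference in the MHC genes was 14.1 points. *Gabra2* and *Apobec3*, genes known for a structural difference between C57 and other mice, had no called transcript. Gabra2-204 had 36.2% to 50.3% in OF1 libraries and 45.9% to 61.1% in C57 libraries (adjusted p = 0.507), while the level of *Gabra2*, a GABA-A receptor subunit, was higher in OF1 mice (46.3 TPM, against 14.6 TPM in C57 mice, adjusted p = 0.00346). Apobec3-203, of a restriction factor of retroviruses, had 0% to 15.4% (median 0%) in OF1 libraries and 0% to 68.2% (median 31.2%) in C57 libraries (adjusted p = 0.243).

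For 227 of the 228 called transcripts the difference had the same sign in En1+/- and in WT mice, which the choice of transcripts from all 12 libraries favours. The libraries of the 2 genotypes are separate, so each genotype could also be taken alone. In En1+/- mice 33 transcripts were called (0.119%), of which 25 had the same direction in WT mice and 15 an unadjusted p under 0.05 there in that direction. In WT mice 73 were called (0.263%), of which 49 had the same direction in En1+/- mice and 29 an unadjusted p under 0.05 there, while over all 27400 transcripts with a difference in both the directions matched for 50.2%. In all, 10 transcripts were called in both genotypes, and missing the threshold in one genotype does not show that the genotypes differed. En1+/- and WT mice, taken over both strains, differed in no transcript by limma (0 of 27796, smallest adjusted p = 0.0562, 1632 at an unadjusted p under 0.05) and in 6 by edgeR (0.0241%).

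**Figure D4:**
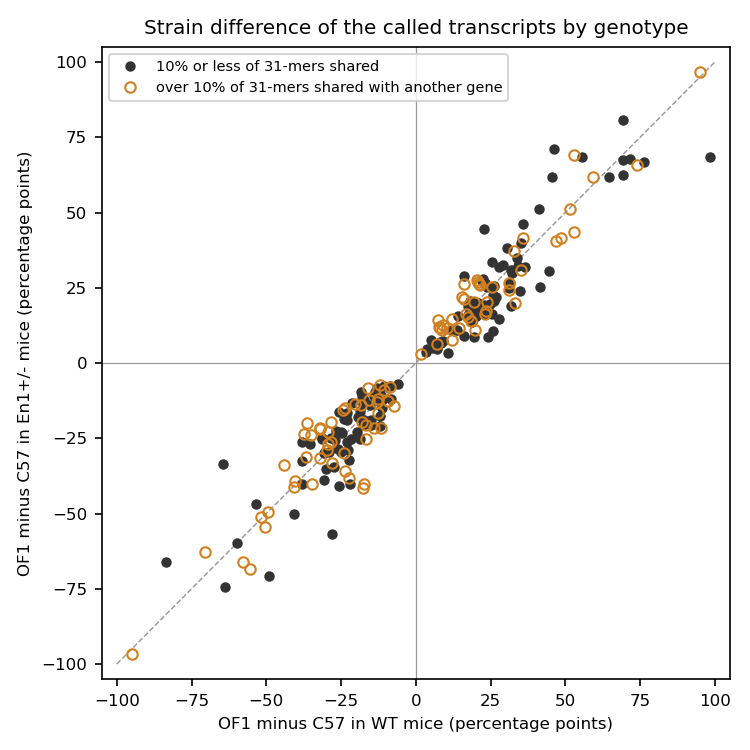
Difference in mean share, OF1 minus C57, of the 228 called transcripts in En1+/- mice (vertical axis, percentage points) against that in WT mice (horizontal axis, percentage points), with open symbols for transcripts that share over 10% of their 31-base stretches with another gene. The points lie along the dashed line of equal differences, and 227 of 228 have the same sign in both genotypes.

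The difference between the strains itself depended on genotype for 5 of 27779 transcripts (0.018%), which belonged to 4 genes, and for 10 by edgeR (0.0402%). Without adjustment, 1648 transcripts had a p under 0.05. Atxn1-206, a noncoding transcript of the ataxin 1 gene, averaged 53.0% (SD 7.26) in C57-En1+/- mice and was at 0% in the other 3 groups (adjusted p = 0.00454), and Slc30a7-203, of a zinc transporter gene, averaged 49.9% (SD 8.59) in C57-En1+/- mice and was likewise at 0% elsewhere (adjusted p = 0.00959). Tbc1d1-203, of a Rab regulator of glucose transport, averaged 13.7% in OF1-En1+/-, 8.07% in OF1-WT, 0% in C57-En1+/- and 27.0% in C57-WT mice (adjusted p = 0.0296). *Tdrd1*, a gene best known from the germ line, was read as Tdrd1-203 alone in all 3 C57-WT libraries and as Tdrd1-201 alone in the other 9 (adjusted p = 1.74e-07 and 1.14e-07), at 0.821 TPM in either strain. The *Tdrd1* shares had an SD of 0 in every group, so these 2 p-values rest on the variance that limma takes from other transcripts. All 5 calls rest on 3 libraries per group.

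The kinds of structural difference in called genes were set beside those of all genes, with no test. The transcript with the largest rise and that with the largest fall were paired in 146 called genes and set beside the 2 leading transcripts of all 8500 genes with 2 or more tested transcripts. Their first donor site differed in 58.9% of called pairs and 59.0% of all, an exon of one lay inside an intron of the other in 22.6% and 32.4%, an intron of one lay inside an exon of the other in 16.4% and 10.4%, and the last acceptor site differed in 53.4% and 34.4%. Both transcripts had a coding sequence in 61.6% of called pairs and 71.2% of all. Among the pairs with 2 coding sequences, these differed in 61 of 90 called pairs and in 4828 of 6049 of all. Over every pair, with or without 2 coding sequences, that is 41.8% and 56.8%. These structures come from a later release of the same annotation, in which 31 of the 146 pairs were unchanged. Among those 31 the last acceptor differed in 71.0%, beside 48.0% of 1383 unchanged pairs, while an intron of one lay inside an exon of the other in 6.45%, beside 11.5%, the opposite order to that over all pairs. By annotated type, 74.6% of the called transcripts were protein-coding (76.2% of those tested), 10.5% retained introns (9.32%), 11.8% coding genes' transcripts without a defined coding sequence (8.15%) and 3.07% decay targets (6.29%), and the number higher in OF1 mice was 91 of 170, 9 of 24, 8 of 27 and 6 of 7 in these types.

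The transcript with the highest mean share was a different one in OF1 and in C57 mice for 873 genes (7.63%), and both of them were called in 24 of these, among them *St8sia1*, *Etfrf1*, *Rint1*, *Hemk1*, *Pnpla3*, *Krbox5*, *Gfer*, *Abhd14a* and *Eno1b*. The larger mean was taken however small the gap, as in *Rint1* in C57 mice, where Rint1-204 averaged 45.4% and Rint1-201 45.3%. Genes at 0 TPM in a library have no share there, which touched 177 of the 11441 genes, and 759 had under 20 reads in some library, but of the 156 called genes 8 had. The models of a gene can be hard to tell apart, since 40.2% of tested transcripts, and 35.5% of the called ones, have no base that another transcript of the same gene lacks.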

How the data were processed

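RNA from laser-microdissected substantia nigra was made into cDNA with a full-length low-input kit and sequenced without strand information. The authors quantified the reads with Salmon against GENCODE mouse transcripts of build GRCm39 and deposited, per library, TPM values and estimated counts for each transcript. The TPM, as deposited, are divided by effective length. The estimated counts, as deposited, need not be whole and were rounded for edgeR. Depth was 13538864 to 168741283 estimated reads per library.

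Shares were computed per gene and library in Python 3.11.15 (pandas 2.3.3, numpy 2.4.6). Transcripts with a mean share of 5% or more were tested with limma 3.58.1 (R 4.3.3) on the arcsine square root of the share, with strain and genotype as terms, trended and robust variance and Benjamini-Hochberg adjustment over all tested transcripts at 0.05. Adjusted p-values are limma's unless edgeR 4.0.16 is named. Printed differences and standard errors are in percentage points. The exact two-sided permutation test exchanged strain labels within genotype (400 arrangements). Gene levels were tested with limma on log2(TPM + 1), and log2 differences are on that scale. The scripts were tested on simulated data. Figures used matplotlib 3.10.9. Nothing in the labels says how the animals of a group were related, so p-values measure the spread between these libraries. A limit for a count of 0 is 3 counts over the reads of the gene and covers counting error only.

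Exon structures, sequences and 31-base stretches were read from a later GENCODE release of the same build. The named genes had 20 or more reads in every library and a called transcript that did not overlap between the strains and differed by 10 points or more, the first 24 by p with at most 2 unnamed gene models, with up to 4 called members of each list and the genes of the list of structural differences, of which 1 is not reported here. Members, lists and this rule were chosen with earlier results of these data known. Alternatives tried were edgeR, other transformations and filters, protein-coding transcripts alone, each genotype alone and leaving out libraries.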

Additional observations from a re-analysis of the deposited data

Results flagged for a closer look

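Single libraries lay far from the rest of their strain in 9 named shares. The gap test used marks about 1 in 20 groups by chance where values are normally distributed. That rate does not hold for shares at 0 in most libraries, such as Apobec3-203 in OF1 mice. There a single value above 0 is marked whatever its size if all others are at 0. Uimc1-205 was at 67.5% in OF1-En1+/- replicate 3 and at 1.73% in C57-WT replicate 2. Krbox5-201 was at 2.89% in OF1-En1+/- replicate 1. Gng12-206 was at 0.614% and Cacna1a-207 at 11.3% in C57-WT replicate 1. Pnpla3-201 was at 60.8% and St8sia1-203 at 5.50% in C57-WT replicate 3. Rps7-201 was at 61.0% in C57-WT replicate 2, and Apobec3-203 was at 15.4% in OF1-En1+/- replicate 2.

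The strain difference itself differed between En1+/- and WT mice for 5 transcripts by the interaction term of limma. The adjusted p-values were 0.00959 for Slc30a7-203, 0.0296 for Tbc1d1-203, 0.00454 for Atxn1-206, 1.74e-07 for Tdrd1-203 and 1.14e-07 for Tdrd1-201. *Tdrd1* had as few as 23 reads in an OF1 library and 45 in a C57 library.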

How the results depend on the processing

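No paired analysis was possible because the labels give no replicate numbers shared between the groups. None of 32 named calls changed direction under any alternative run, and of all 228 calls 1 did not have the same sign in En1+/- and WT mice. For a share without overlap between the strains, leaving out libraries or taking 1 genotype alone cannot reverse the direction. The choice of named genes by absence of overlap thus fixed that outcome in advance for such runs. Beside the 228 transcripts in 156 genes called between the strains, edgeR called 79 in 71, protein-coding transcripts alone 135 in 88, WT mice alone 73 in 60, En1+/- mice alone 33 in 26, and the libraries without SW22 and C572S 126 in 90. Leaving out transcripts that share over 10% of their 31-base stretches, an alternative chosen after seeing the data, gave 126 in 92, all 126 among the 138 main calls tested there. The p-values were those of the main fit and only the adjustment was repeated, so this overlap is no separate support. Leaving out 1 library gave 163 to 213 transcripts and 110 to 152 genes. For genotype, where limma called 0, edgeR called 6 transcripts in 6 genes, log2 odds of the share 4 in 4, shares of reads 2 in 2, and genes with 20 or more reads in every library 1 in 1. For the interaction, beside 5 in 4, edgeR called 10 in 10, log2 odds 11 in 10, and untransformed shares 9 in 7. The 873 genes with different leading transcripts were 273 among genes with a mean of 1000 or more reads, and 850 to 934 without 1 library. Of 870 alternative values for 32 named calls, 766 stayed past the threshold and the others did not. Among the transcripts named above, edgeR did not keep the calls of Cacna1a-207, Ccdc88c-204, Epb41l1-204, Gng12-201, Hddc3-201, Heatr3-201, Hemk1-201, Hemk1-206, Hspa8-202, Krbox5-201, Krbox5-204, Ndufaf7-203, Nudt6-210, Pnpla3-201, Psmb5-201, Rint1-201, Rpl21-203, Rpl29-205, Rps2-201, Rps2-208, Rps7-201, Srsf1-205, St8sia1-201 and Zc2hc1a-201 (adjusted p-values of 0.0857 to 1). Leaving out any 1 library kept 28 of the 32 calls. Rps2-201 lost its call without any of 6 of the 12 libraries (adjusted p up to 0.0649 by limma). The cause of these changes was not tested, apart from the fewer samples or transcripts that some alternatives hold. Short transcripts and those with few distinguishing bases limit the precision of a share, and libraries of low depth limit that of rare transcripts.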
